A study of Mus musculus with 12 samples.

Results

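The AP-1 and immediate early genes described here were Fos, Fosb, Jun, Junb, Jund, Atf3, Ier2, Dusp1, Btg1 and Btg2, taken as every probe set whose only annotated gene symbol was one of these names. They made up 10 of the 15965 genes and 18 of the 29197 probe sets that carried 1 symbol, with 14 probe sets on the U74Av2 array, 2 on U74Bv2 and 2 on U74Cv2. Total thymocytes of adult AND-TCR transgenic mice, whose rearranged TCR recognizes MHC class II and is positively selected in H-2b mice, were compared with total thymocytes of adult C57BL/6 mice, the wild type. RNA of each genotype was labeled and hybridized to these 3 Affymetrix array types in a first and a second hybridization, which gave 12 arrays. The methods call the hybridizations independent experiments, but neither they nor the labels say how many mice stood behind an array, whether the hybridizations drew on separate mice, or which promoter drives the transgene, so the p-values cover the spread between hybridizations alone, and that spread may be technical. Total thymocytes mix several stages, and in such bulk RNA fewer cells of a stage and less RNA per cell cannot be told apart.

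AP-1 is a dimer of leucine zipper proteins. A Jun protein pairs with a Fos protein, with another Jun protein or with a member of the ATF family, and the dimer binds DNA at short palindromic sites. Most genes of this group are immediate early genes, which are transcribed within minutes of a signal such as TCR engagement without new protein synthesis, and whose short-lived mRNAs soon fall again. In thymocytes, TCR signals reach them through calcium and MAP kinases, and the same genes are known to respond to stress and to tissue handling.

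Ier2 and Btg2 had the smallest p-values of the group. Ier2 averaged 5095 ± 931 intensity units in AND-TCR transgenic and 2495 ± 256 in C57BL/6 thymocytes (SD, n = 2 each), and Btg2 averaged 14302 ± 1886 in AND-TCR transgenic and 20394 ± 1223 in C57BL/6 thymocytes (SD, n = 2 each). Neither passed an adjusted p of 0.05 in limma. With the hybridization number, which marked the recorded day, as a block, Ier2 passed as higher and Btg2 as lower in the transgenic thymocytes. After the numbers were crossed between the genotypes, so that the block no longer followed the day, Ier2 still passed and Btg2 did not. Jund, Fosb and both probe sets of Btg1 had folds near 1, and Fos, Jun and Atf3 were too close to the background to be tested.

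A value counted as measured above a detection limit of 420.8 units on U74Av2, 869.4 on U74Bv2 and 1579 on U74Cv2, which was 2 SDs of the noise estimated from the negative values. Testing asked that a probe set be above the limit in both hybridizations of 1 genotype or more. Of the 18 probe sets, 8 were tested, for 7 genes, and all 8 were above the limit on all 4 arrays of their type. Another 8 were above it on no array. Lower values were raised to the limit and logs taken, and each log2 fold change is on that scale.

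Of the 8 tested probe sets, 0 were called higher and 0 lower in AND-TCR transgenic thymocytes at an adjusted p under 0.05 in limma, where 1.05% of all 12845 tested probe sets were called, 0.483% higher and 0.568% lower. At an unadjusted p under 0.05, 1 was higher (Ier2) and 1 was lower (Btg2), where 14.0% of all tested probe sets were under it, 7.47% higher and 6.51% lower. With the replicate block, 1 was called higher and 1 lower, where 2.33% of all tested probe sets were called, 1.18% higher and 1.15% lower. The values of the genotypes did not overlap for 4 of the 8. The transgenic values were the higher ones for Ier2, Dusp1 and the tested Junb probe set, and the lower ones for Btg2. Among all tested probe sets 44.4% did not overlap, 23.0% with higher and 21.4% with lower transgenic values.

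The Fos proteins pair with Jun proteins and add an activation domain to the dimer. Fosb was the only Fos gene of the group with a tested probe set. Probe set 103990_at read 731.8 and 1006.4 in the first and second hybridization of AND-TCR transgenic thymocytes, against 1258.5 and 564.6 in those of C57BL/6 thymocytes. Both transgenic values lay between the C57BL/6 values, which were more than 2 times apart. The log2 fold change was 0.03 (SE 0.45), the 95% interval of the fold ran between 0.489 and 2.12, and the adjusted p in limma was 0.989. The transgenic value was 0.582 times the C57BL/6 value in the first hybridization and 1.78 times in the second, so the direction turned between them.

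Fos itself was above the limit in 1 reading only. Probe set 160901_at read 536.1 and 293.2 in the transgenic thymocytes and 26.6 and 187 in C57BL/6 thymocytes. The first transgenic array was the one above the limit, and both transgenic values were above both C57BL/6 values. The other Fos probe set, 161716_at, read -41.5 and 10.2 in the transgenic and 48.5 and 156.1 in C57BL/6 thymocytes, with the opposite order and all values under the limit. Neither probe set gives a fold, and the level of Fos was not measurable at this sensitivity in most arrays.

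Jun is the founding Jun protein and the strongest activator among them, Junb shares its partners and can oppose it, and Jund is known in many cells as the one made without stimulation. Jund and Junb had 1 tested probe set each. Jund at 102364_at read 27163.4 and 34668.3 in the transgenic thymocytes and 32972.2 and 29926.7 in C57BL/6 thymocytes. The transgenic values enclosed the C57BL/6 values. The log2 fold change was -0.03 (SE 0.16), the 95% interval of the fold was 0.746 to 1.28, and the adjusted p in limma was 0.953. A second Jund probe set, 106973_at on U74Bv2, was negative on all 4 arrays, between -428.6 and -263.5 in the transgenic and between -245.2 and -163.5 in C57BL/6 thymocytes, and so gave no measure of the same gene.

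Junb at 102362_i_at read 1040.9 and 926.5 in the transgenic thymocytes, above the 684.3 and 578.8 of C57BL/6 thymocytes. The ratio was alike in both hybridizations, at 1.52 and 1.60. The log2 fold change was 0.64 (SE 0.31), a 1.56-fold difference with a 95% interval of 0.944 to 2.58, and the adjusted p in limma was 0.419, or 0.486 with the replicate block. The values stood little above the limit, and at a limit of 4 noise SDs the log2 fold change was 0.22. The other Junb probe set, 102363_r_at, read 158.2 and 825.8 in the transgenic and -433.6 and 566.3 in C57BL/6 thymocytes. Its second arrays were above the limit and its first arrays under it in both genotypes, so it was not tested.

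Jun was above the limit on no array. Probe set 100130_at read 12.9 and 206.3 in the transgenic and -371.9 and 7.7 in C57BL/6 thymocytes, and 171444_r_at on U74Cv2 read between -940.5 and 435.5 in the transgenic and between -377.7 and -212.9 in C57BL/6 thymocytes. Atf3, a stress-induced ATF protein that pairs with Jun proteins, was likewise above the limit on no array. Atf3 had 3 probe sets. The first, 104155_f_at, read 300.2 and 275.2 in the transgenic and -156.6 and 141.3 in C57BL/6 thymocytes, and 104156_r_at read 164.7 and 413.9 in the transgenic and 304.2 and 33.6 in C57BL/6 thymocytes. The third, 161645_r_at, was negative throughout, with -494.4 and -1203.9 in the transgenic and -749.2 and -576.1 in C57BL/6 thymocytes. None of these gives a fold, since every value was under the limit.

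**Figure D1:**
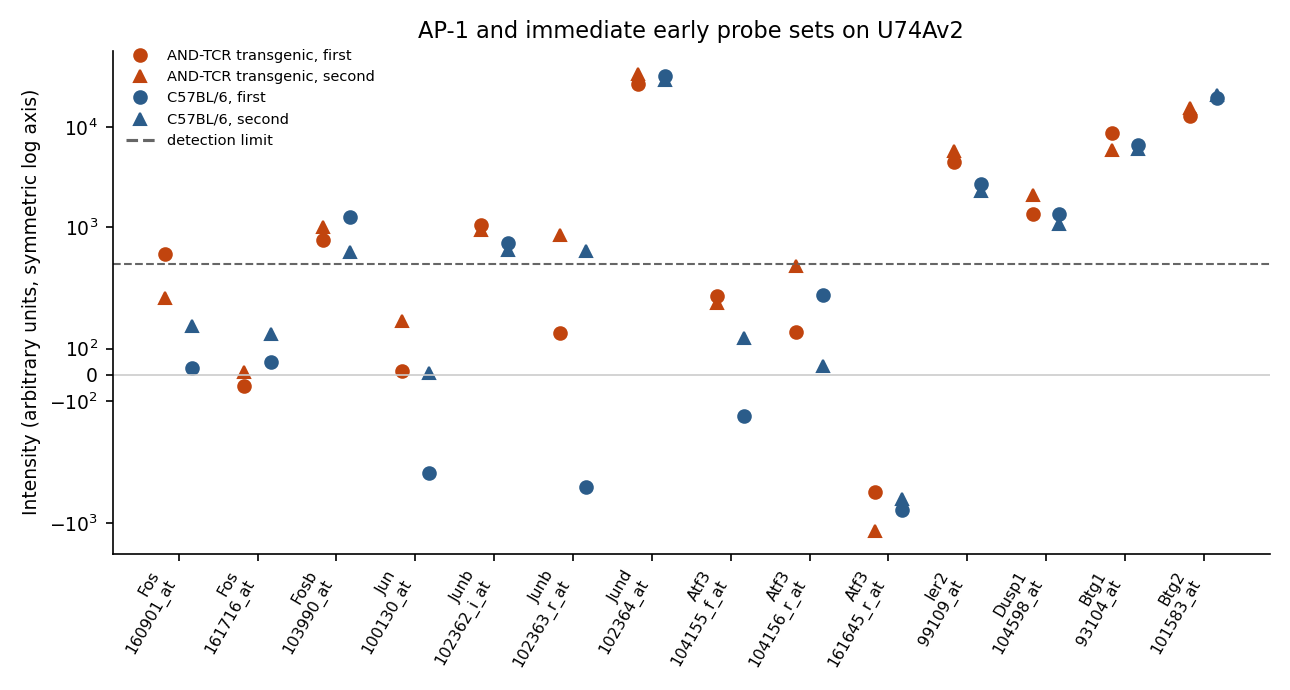
Intensity of each of the 14 probe sets on U74Av2, in arbitrary units on a symmetric log axis that is linear between the detection limit and its negative, for the first (circles) and second (triangles) hybridization of AND-TCR transgenic (orange, left) and C57BL/6 thymocytes (blue, right). Each point is 1 array, and the dashed line is the limit of 420.8. Ier2 and Btg2 show separate genotypes well above the limit, with Ier2 higher and Btg2 lower in the transgenic thymocytes, while all values of Jun and Atf3 and all but 1 of Fos lie under it.

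Ier2 is a nuclear protein first found as a serum-induced immediate early gene product. Its single probe set, 99109_at, read 4437.3 and 5753.7 in the transgenic thymocytes, against 2676 and 2313.9 in C57BL/6 thymocytes. Each transgenic value exceeded each C57BL/6 value, with ratios of 1.66 in the first and 2.49 in the second hybridization. The log2 fold change was 1.02 (SE 0.20), a 2.03-fold difference with a 95% interval of 1.46 to 2.83. The unadjusted p in limma was 0.00142 and the adjusted p was 0.0759, and 1.85% of all tested probe sets had a smaller p. The adjusted p was 0.0140 with the replicate block and 0.0331 when testing asked for a value above the limit on all 4 arrays. The SE was 0.205 with the block and 0.203 without it, so the lower p did not come from a smaller SE. A block with the numbers crossed between the genotypes, added after seeing the data, gave an adjusted p in limma of 0.00297. Ier2 thus passed whether or not the block followed the day. When 1 hybridization at a time was left out, the log2 fold change lay between 0.83 and 1.21 and the adjusted p between 0.240 and 0.4605, in fits in which 0 of all tested probe sets were called.

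Dusp1 is a nuclear phosphatase that switches off the MAP kinases p38, JNK and ERK, and is itself induced by them. Probe set 104598_at read 1354.9 and 2092.1 in the transgenic and 1348 and 1065.7 in C57BL/6 thymocytes. The first hybridizations were nearly equal, with a ratio of 1.005, and the second differed, with a ratio of 1.96. The log2 fold change was 0.49 (SE 0.34), a 1.41-fold difference with a 95% interval of 0.809 to 2.44, and the adjusted p in limma was 0.589. For Dusp1 the log2 fold change was 0.80 without the first transgenic hybridization, 0.18 without the second, and 0.32 without the second C57BL/6 hybridization. A second Dusp1 probe set, 168611_i_at on U74Cv2, read -1040.5 and 580.3 in the transgenic and -241 and -640 in C57BL/6 thymocytes, all under the limit of that array type.

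Btg1 and Btg2 are related antiproliferative proteins that bind the CCR4-NOT complex, which removes poly(A) tails from mRNAs. In T cells they are known for their part in keeping cells quiescent. Btg2 at 101583_at read 12968.4 and 15635.2 in the transgenic thymocytes, against 19529.7 and 21258.7 in C57BL/6 thymocytes. Both transgenic values were under both C57BL/6 values, with ratios of 0.664 and 0.736. The log2 fold change was -0.52 (SE 0.15), a value 1.43-fold lower in the transgenic thymocytes with a 95% interval of the fold between 0.549 and 0.889, and the unadjusted p in limma was 0.00963. The adjusted p was 0.186 without the block, 0.0499 with it and 0.130 with the crossed block, which was added after seeing the data. Without 1 hybridization at a time, the log2 fold change of Btg2 lay between -0.65 and -0.38 and its adjusted p between 0.316 and 0.535.

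Btg1 was measured by probe sets on 2 array types. On U74Av2, 93104_at read 8824.1 and 5861.4 in the transgenic and 6607.9 and 6112.5 in C57BL/6 thymocytes, a log2 fold change of 0.18 (SE 0.21, 95% interval of the fold 0.804 to 1.59, adjusted p in limma 0.769). On U74Bv2, 114238_at read 2357.4 and 2062.3 in the transgenic and 2056.7 and 2288.4 in C57BL/6 thymocytes, a log2 fold change of 0.02 (SE 0.25, 95% interval 0.655 to 1.58, adjusted p in limma 0.983). The genotypes overlapped at both. At both, the ratio was above 1 in the first hybridization, at 1.34 and 1.15, and under 1 in the second, at 0.959 and 0.901. The difference between Btg1 and Btg2 was not tested.

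**Figure D2:**
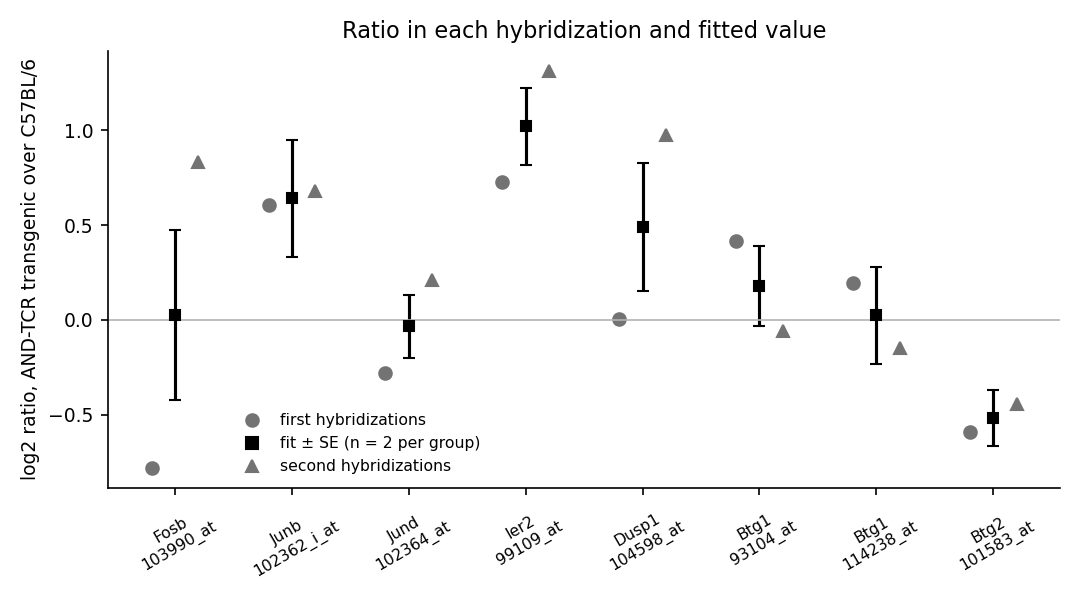
Log2 ratio of AND-TCR transgenic over C57BL/6 thymocytes for the 8 tested probe sets in the first (circles) and second (triangles) hybridizations, with the fitted log2 fold change and its SE (squares with bars, n = 2 per genotype). Ier2 and Junb lie above 0 and Btg2 under 0 in both hybridizations, Dusp1 lies at 0 in the first and above it in the second, and Fosb, Jund and both Btg1 probe sets change sign.

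The hybridization number was also the day that the scanner's experiment files record, with both genotypes on each day, so ratios within a number are ratios within a day. The sign was the same on both days for 4 of the 8 tested probe sets (Ier2, Junb, Dusp1 and Btg2), against 57.7% of all tested probe sets. The ratio was larger on the second day for 6 of the 8, against 50.6%. Within the transgenic thymocytes, the second reading was 1.30 times the first for Ier2, 1.54 times for Dusp1 and 1.38 times for Fosb. Within C57BL/6 thymocytes it was 0.865 times for Ier2, 0.791 times for Dusp1 and 0.449 times for Fosb. A second reading above the first in the transgenic thymocytes together with one under the first in C57BL/6 thymocytes was found for 4 of the 8, the fourth being Jund, against 25.4% of all tested probe sets. With 2 hybridizations per genotype, a shift between days cannot be told apart from a shift of a single array. The chip lot of U74Av2, which held 7 of the 8 tested probe sets, changed with the day, as did the fluidics station of U74Cv2, and neither can be told apart from it.

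**Figure D3:**
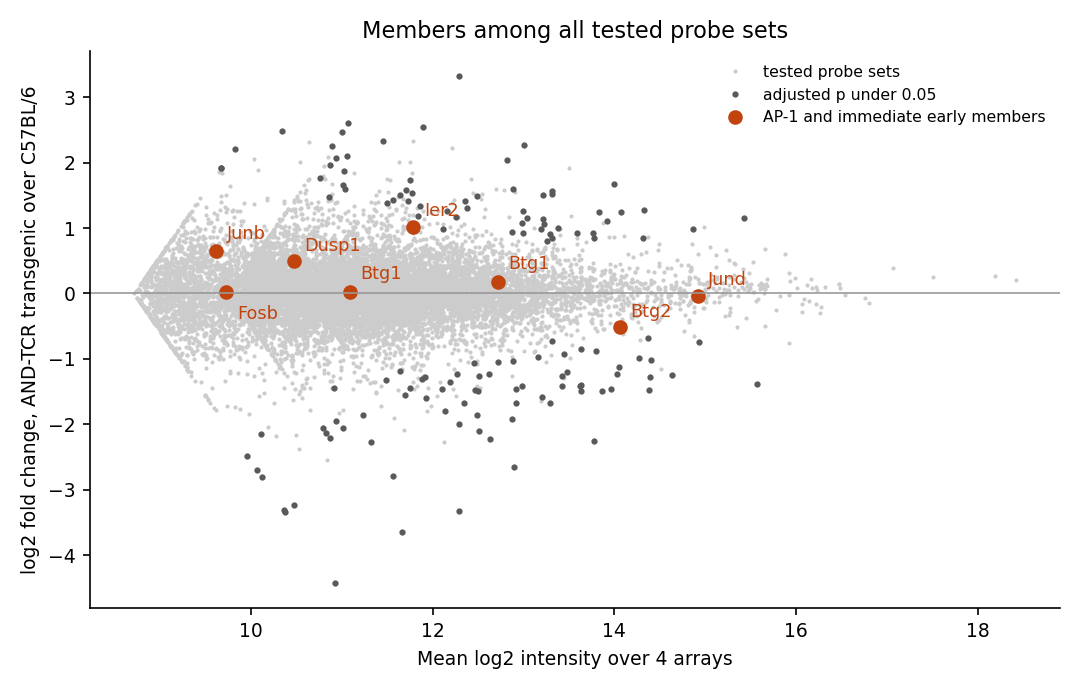
Log2 fold change in AND-TCR transgenic relative to C57BL/6 thymocytes against the mean log2 intensity over 4 arrays, for the 12845 tested probe sets of the 3 array types (grey), those with an adjusted p under 0.05 in limma (dark) and the 8 probe sets of the group (orange, named). Ier2 at 1.02 lies at the edge of the called probe sets and Btg2 at -0.52 stands inside the band of uncalled ones.

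The promoters of the group carry short elements that AP-1 and CREB/ATF proteins are known to bind, and 4 are shown as examples of the elements found. RefSeq promoters of GRCm38.p6, from 250 bases before to 50 after the start, were listed for 9 of the 10 genes. Both strands were searched. The AP-1 element TGACTCA was in 0 of the 9, and in 5.20% of all 32851 promoters of that length. The cAMP response element TGACGTCA was in Btg2 and Dusp1, and in 1.79% of all promoters. The serum response CArG box was in 0 of the 9 and in 1.63% of all. Elements farther from the start were not searched, so an absence holds for this stretch alone. A pair of variants was then read off the promoters of the group themselves, so that their presence here is no finding. TTACGTCA was in Btg1 and Atf3 and in 0.499% of all, and TGACATCA, the letters of the known AP-1 site of the Jun gene, was in Jun and in 3.62% of all. No searched element contains another. The stretches below lie at chr1:134079288-134079347 on the minus strand for Btg2, chr17:26508582-26508641 on the minus strand for Dusp1, chr10:96616785-96616844 on the plus strand for Btg1 and chr4:95052234-95052293 on the minus strand for Jun, with the element in capitals and its first base at -166, -143, -190 and -45 from the start in that order.
Btg2: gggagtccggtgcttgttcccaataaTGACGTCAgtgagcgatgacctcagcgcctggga
Dusp1: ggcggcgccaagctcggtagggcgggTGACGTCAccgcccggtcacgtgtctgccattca
Btg1: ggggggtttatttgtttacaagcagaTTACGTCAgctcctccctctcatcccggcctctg
Jun: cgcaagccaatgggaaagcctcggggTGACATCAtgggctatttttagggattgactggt
Btg2 and Dusp1 hold the same 8 letters, and their log2 fold changes were -0.52 and 0.49. A match describes the letters alone.

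The relatives and regulators of the group were read from 7 lists, each gene at its tested probe set with the highest mean, beside a median log2 fold change of 0.02 over all tested probe sets, of which 52.0% were above 0 and 48.0% below. Among other AP-1 and bZIP factors, 11 of the 22 with a probe set were tested, with 1 called higher, 0 lower and a median of -0.00, or -0.11 to 0.14 with 1 hybridization left out. The called gene was Bach2, a bZIP repressor that binds AP-1-like sites. It read 18855.8 and 16045.2 in the transgenic and 4940 and 7045.8 in C57BL/6 thymocytes, without overlap, a log2 fold change of 1.56 (SE 0.25, adjusted p in limma 0.0458). Bach2 did not pass with p-values adjusted within each array type or with the limit at 1 or 4 noise SDs, and neither Bach2 nor any other gene of these lists passed without the trend or without any 1 hybridization. Maf, another bZIP factor, read 4193 and 2941.4 in the transgenic and 837.4 and 952.7 in C57BL/6 thymocytes, of which 1 was under its limit, and had an adjusted p of 0.0632. Bach1, a relative of Bach2, had a log2 fold change of -0.31 (adjusted p 0.451), and Mafg, a small Maf protein that pairs with both, was under its limit in both transgenic arrays at 303.1 and 533.6, against 1047 and 1455.6 in C57BL/6. Fosl1, Fosl2, Jdp2 and Batf were among the 11 that could not be tested.

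Of the other immediate early genes, 18 of 28 were tested, with 1 higher, 1 lower and a median of 0.05, or -0.11 without the first transgenic hybridization and 0.17 without the second. Zfp36l2, an RNA-binding protein that speeds the decay of AU-rich mRNAs, was higher in the transgenic thymocytes, with 12030.3 and 13228.5 against 5616.7 and 5690.3 in C57BL/6 thymocytes (log2 fold change 1.16, SE 0.14, adjusted p in limma 0.0165). Ets2, an ETS transcription factor downstream of Ras and ERK, was lower, with 4603 and 3090.5 in the transgenic against 9324.5 and 8816.6 in C57BL/6 thymocytes (log2 fold change -1.26, SE 0.21, adjusted p in limma 0.0471). In both genes each transgenic value was outside the range of the C57BL/6 values, although Ets2 did not pass with the limit at 1 noise SD or with no filter. Egr1 and Egr2, zinc finger factors induced by TCR signals through ERK, had transgenic values above both C57BL/6 values and did not pass the test. Egr1 had 5435 and 8297.2 in the transgenic and 3007.5 and 4330.7 in C57BL/6 thymocytes, with ratios of 1.81 and 1.92, a log2 fold change of 0.90 (SE 0.26) and an adjusted p of 0.192, and it passed with the replicate block (adjusted p = 0.00815). Egr2 had 2586.5 and 2018.4 in the transgenic and 1394.9 and 1000.3 in C57BL/6 thymocytes, with an adjusted p of 0.230 in limma and 0.145 with the block.

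The other MAP kinase phosphatases, relatives of Dusp1, had 10 of 12 genes tested, 0 called in either direction and a median of 0.33, with 9 log2 fold changes above 0 and 1 below. Both moved with single hybridizations, since the median was 0.14 with 6 above and 4 below 0 without the second transgenic hybridization, 0.11 with 7 above and 3 below without the second C57BL/6 one, and 0.49 without the first transgenic one. At an unadjusted p under 0.05 in limma, 1 was higher, Dusp2, a nuclear phosphatase made in activated lymphocytes. Dusp2 read 9040.5 and 10391.5 in the transgenic and 5852.9 and 5648.2 in C57BL/6 thymocytes. Its log2 fold change was 0.75 (SE 0.14) with an adjusted p in limma of 0.0692. With the replicate block the adjusted p was 0.0130 and the SE 0.15. Dusp2 also passed when testing asked for a value above the limit on all 4 arrays. Dusp6 and Dusp10, which act on ERK and on p38 and JNK, had log2 fold changes of 0.37 (adjusted p 0.590) and 0.32 (adjusted p 0.540). Dusp9 was the gene below 0, at -0.76 (adjusted p 0.399).

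The MAP kinases and kinase targets upstream of AP-1 had 18 of 20 genes tested, 0 called, 1 higher and 0 lower at an unadjusted p under 0.05, and a median of 0.18, which was 0.076 without the second transgenic hybridization and 0.29 without the first C57BL/6 one. Those with the smallest p in limma were Mapk11, Mapk9, Elk1 and Map3k1. Mapk11, a p38 kinase, had a log2 fold change of 1.11 (adjusted p 0.317), with 1 C57BL/6 array under the limit. Mapk9, a JNK kinase, had 0.51 (adjusted p 0.440), and Map3k1, an activator of the JNK cascade, had 0.40 (adjusted p 0.553). Elk1 is the ETS factor that recruits ERK signals to serum response elements. Both C57BL/6 arrays of Elk1 were under the limit and were raised to it. On that scale Elk1 had a log2 fold change of 0.35, a 1.28-fold difference (95% interval 0.894 to 1.82, adjusted p 0.541). AP-1 partners and coregulators had 15 of 16 genes tested, 0 called and a median of 0.01, or -0.035 to 0.019 with 1 hybridization left out. Nfatc3, a calcium-dependent factor that binds DNA together with AP-1, read 5321.1 and 4043.8 in the transgenic and 7986.2 and 8160.5 in C57BL/6 thymocytes (log2 fold change -0.80, SE 0.17, adjusted p in limma 0.118), and Nfatc2 had a log2 fold change of 0.64 (adjusted p 0.446). Smad3, a TGF-β signal protein, had 0.44 (adjusted p 0.310), and Fbxw7, which marks Jun for degradation, had -0.65 (adjusted p 0.367).

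The other BTG and Tob proteins with the subunits and partners of CCR4-NOT had 14 of 17 genes tested and 0 called, with 1 higher and 1 lower at an unadjusted p under 0.05. Their median log2 fold change was -0.25, and 13 of the 14 were below 0, also after quantile normalization, or 12 of 14 with the mean over each gene's probe sets. Without the first transgenic hybridization the median was -0.50 with 11 of 14 below 0, and without the second it was -0.18 with 10 of 14 below 0. The exception was Cnot6l, a deadenylase subunit, which read 16374.5 and 14309.4 in the transgenic and 10202.8 and 11070.3 in C57BL/6 thymocytes (log2 fold change 0.53, adjusted p in limma 0.123). Its close paralog Cnot6 read 9490.7 and 9187.7 in the transgenic and 12921 and 13717.1 in C57BL/6 thymocytes (log2 fold change -0.51, SE 0.10, adjusted p in limma 0.0986). Cnot8 and Cnot2, another deadenylase and a scaffold subunit, had -0.62 (adjusted p 0.435) and -0.28 (adjusted p 0.457). Genes of 1 complex are not independent of each other, and none of the 14 passed the test alone.

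**Figure D4:**
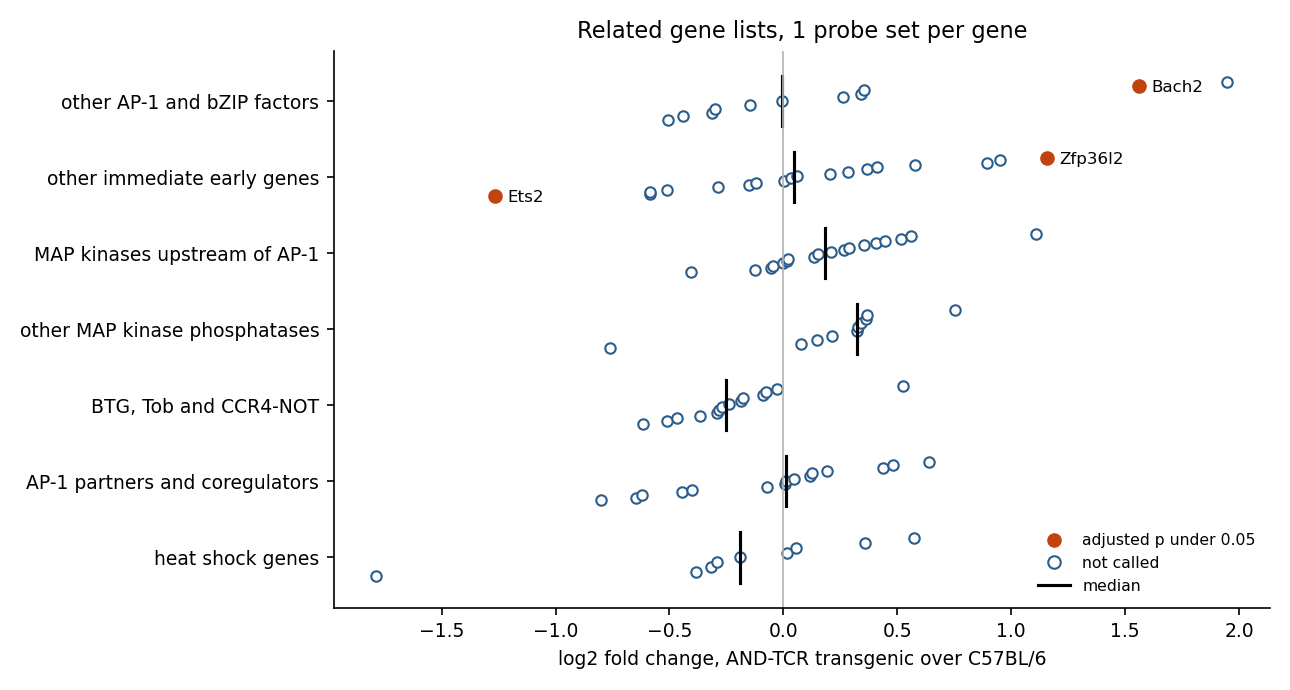
Log2 fold change in AND-TCR transgenic relative to C57BL/6 thymocytes for each tested gene of the 7 related lists, at 1 probe set per gene. Filled orange points have an adjusted p under 0.05 in limma and are named, open points were not called, and the black bar is the median of the list, which ran between -0.25 for BTG, Tob and CCR4-NOT and 0.33 for the other MAP kinase phosphatases. With 1 hybridization left out these medians ran between -0.50 and -0.18 and between 0.11 and 0.49.

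Heat shock genes, which like immediate early genes are known to rise when tissue is handled, had 9 of 12 genes tested, 0 called in limma, 1 higher and 2 lower at an unadjusted p under 0.05 and a median of -0.19, or -0.25 to -0.12 with 1 hybridization left out. Their summed intensity on U74Av2 was 53614 and 48994 in the transgenic and 53778 and 54613 in C57BL/6 thymocytes. Hspa1a, Hspa1b and Hspb1 were above the limit on no U74Av2 array. The named genes were Dnajb4 (log2 fold change -1.79, adjusted p 0.110, with 1 transgenic array under the limit), Hspa5, the chaperone of the endoplasmic reticulum (0.57, adjusted p 0.249), Hsp90aa1 (-0.32, adjusted p 0.346) and Dnajb1 (-0.38, adjusted p 0.436).

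Markers of double-positive thymocytes summed to 46788 and 53574 on U74Av2 in the transgenic and 129241 and 123449 in C57BL/6 thymocytes. Of these, 4 of 7 were called lower (Rag1, Rag2, Cd8a and Cd8b1). Mature single-positive markers summed to 34064 and 29081 on U74Av2 in the transgenic and 21606 and 20979 in C57BL/6 thymocytes. Most of that sum was Cd52, with 23215.4 and 20116.2 in the transgenic and 16971.8 and 17326.3 in C57BL/6, which was not called. Of 6 tested, 2 were called higher, Slfn1 and Ms4a4b, the latter by a U74Bv2 reading outside the sum. Log2 fold changes were above 0 for 5 of the 6. The other was Il7r, lower without overlap (1425.4 and 1426.2 in the transgenic, 2176.4 and 1729 in C57BL/6). T lineage markers summed to between 100629 and 115308 on every array and all 8 genes were above the limit throughout. The natural killer list summed to 3994 and 4028 in the transgenic and 1619 and 2161 in C57BL/6 thymocytes. Klrd1, Ncr1, Gzmb and Prf1 were above the limit nowhere, and most of the sum was Gzma (3337.2 and 3411 in the transgenic, 820.7 and 1372.5 in C57BL/6). Nkg7, read on U74Cv2, went the other way, with 10305.9 and 8182 in the transgenic and 11239.5 and 12904.4 in C57BL/6. The myeloid list summed to 7793 and 7168 in the transgenic and 5126 and 7113 in C57BL/6, with Itgam, Adgre1 and Fcer1g above the limit nowhere. The stroma list summed to 3291 and 5440 in the transgenic and 2836 and 2951 in C57BL/6, with 5 of 9 above it nowhere. B cell markers summed to 31234 and 32575 in the transgenic and 32141 and 35971 in C57BL/6. Their members differed in direction, with 2 log2 fold changes above 0, 4 below and 0 called among 6 tested. Cd79a read 221.6 and 326.5 in the transgenic, under the limit, and 919.8 and 985.9 in C57BL/6. Cd74 was the higher in the transgenic, at 12496.9 and 13066.2 against 8158.4 and 9903.4. Red cell markers summed to 6639 and 4378 in the transgenic and 9709 and 11407 in C57BL/6. Only 2 of the 6 listed were on U74Av2, Alas2 was above the limit nowhere, and the sum was Hba-a1 alone. The ratio of the 3′ to the 5′ probe set of β-actin on U74Av2 was 1.20 and 1.37 in the transgenic and 1.39 and 1.31 in C57BL/6 thymocytes, which overlap. It was separate between the genotypes for Gapdh on U74Bv2, with 0.707 and 0.733 in the transgenic and 0.913 and 0.939 in C57BL/6 thymocytes, and for β-actin on U74Cv2, with 1.20 and 1.25 in the transgenic and 1.34 and 1.31 in C57BL/6 thymocytes. Of the tested genes named from the group and the related lists, Btg1 at 114238_at, Cnot6, Cnot6l, Nfatc2 and Nfatc3 were read on U74Bv2. So were Maf, Mafg, Dusp6, Dusp10, Mapk9, Mapk11, Smad3, Fbxw7 and Dnajb4. Bach2 and Elk1 were read on U74Cv2. The part of these properties in the values of Ier2, Btg2 and the related genes was not tested. All transgenic arrays were processed on fluidics module 4 and all C57BL/6 arrays on module 2, which cannot be told apart from the genotype.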

How the data were processed

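The authors labeled thymocyte RNA with biotin, hybridized it to Affymetrix U74Av2, U74Bv2 and U74Cv2 arrays and used Affymetrix Microarray Suite, version 4.0, on the scans. Linear intensities were deposited, 20.1% to 37.8% of them negative per array, with a mean of 1000 on each array after 2% was trimmed at each end. The deposited experiment files gave the recorded day, chip lot, fluidics station and fluidics module and no other value used here.

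Here each array was scaled by 1 factor to the common trimmed mean of its type, which changed the values by less than the digits printed. The noise SD was the median size of negative values times 1.4826 and the detection limit 2 noise SDs, above which lay 23.2% to 48.9% of each array. The 66 control probe sets of each type were left out. Values floored at the limit were log2 transformed and tested with limma 3.58.1 in R 4.3.3 (lmFit, eBayes with a trend, 1 fit per array type), with Benjamini-Hochberg adjustment over the 12845 tested probe sets. The fit was tested on simulated data. With 2 arrays against 2, no permutation test can pass 0.05. Precision is limited by the number of arrays.

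Gene symbols came from the platform's annotation table. Suffixes _i, _r and _f mark probe sets chosen under relaxed rules, which may cross-hybridize. The array types were normalized separately. Levels of different probe sets were set side by side only to pick 1 for a list gene that had several. The genes and lists were chosen with earlier results of these data known. Named were all 10 genes and, in each list, those passing with or without the block, up to 6, filled to 4 by the smallest p. Alternatives were the scaling, the limit, the transform, the filter, the trend, the adjustment, the replicate block and leaving out each hybridization. Deviations from the genotype mean of same-numbered arrays correlated at 0.04, -0.12 and -0.23 on the 3 array types, so the number was kept as a shared day and not as a pair of samples.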

Additional observations from a re-analysis of the deposited data

How the results depend on the processing

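Over 14 alternatives the 8 tested probe sets gave 99 values with the same direction and the same side of the threshold, 3 that newly passed and 9 that turned sign. Several alternatives could not move a log2 fold change, so the direction in them was fixed in advance. These were the values as deposited, both other filters, the fit without the trend, the adjustment within array types and the replicate block. Ier2, Junb, Dusp1 and Btg2 kept their direction under all 14, although Dusp1 ran between 0.18 and 0.80. Their genotypes did not overlap, so leaving out 1 hybridization could not turn their sign either. Fosb turned to -0.021 after quantile normalization, -0.20 without the second transgenic and -0.55 without the second C57BL/6 hybridization, and its highest value with 1 left out was 0.60. Jund turned to 0.14 without the first transgenic and 0.04 without the first C57BL/6 hybridization, with a lowest value of -0.21. Btg1 at 93104_at turned to -0.12 without the first transgenic hybridization, with a highest value of 0.47, and 114238_at to -0.0019 after quantile normalization, -0.073 without the first transgenic and -0.054 without the first C57BL/6 hybridization, with a highest value of 0.12.

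Called higher and lower, all tested probe sets numbered 62 and 73. They were 111 and 127 on a generalized log scale, 413 and 402 with no filter, 129 and 127 when above the limit on all 4 arrays, 1 and 9 without the trend, and 151 and 148 with the replicate block. Of the 8 probe sets, 1 was higher with the all-array filter (Ier2), and with the replicate block 1 was higher (Ier2) and 1 lower (Btg2). The related lists had 2 higher and 1 lower. They had 1 higher with the limit at 4 noise SDs and 1 higher and 0 lower at 1 noise SD. On the generalized log scale 3 were higher, with Maf added, and 2 lower, with Nfatc3 added. When above the limit on all 4 arrays 3 were higher, with Dusp2 added. With no filter 5 were higher and 5 lower, and without the trend 0 and 0. Adjustment within array types gave 1 higher and the replicate block 4 higher. Leaving out any 1 hybridization left 0 to 0 calls among all tested probe sets, the 8 and the lists, with 1290 to 1969 probe sets at an unadjusted p under 0.05. Since the correlations of same-numbered arrays were partly under -0.1, a crossed replicate block was added after seeing the data, with 231 higher and 226 lower among all, 1 higher among the 8 (Ier2, with Btg2 not passing) and 6 higher and 4 lower in the lists. The cause of these shifts was not tested, apart from the number of probe sets or arrays that a filter or an omission changes. Signal near the limit bounds Fos, Jun and Atf3, and 2 arrays per genotype limit the rest.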
